A study of Mus musculus with 42 samples.

Results

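The effect of deleting Rbfox2 from endothelial cells was measured in the intima of mouse carotid arteries kept at low flow for 7 d. Of the 42 samples of the series, 6 belong to this comparison, 3 libraries from Rbfox2 EC-KO mice and 3 from Rbfox2 controls, and they were chosen by the genotype, flow and time in their labels. EC-KO mice carried Cdh5(PAC)-CreERT2, a tamoxifen-inducible Cre driven by an endothelial promoter, together with the Rosa26-mTmG reporter and Rbfox2 lox/lox alleles. Controls were littermates with Rosa26-mTmG and Rbfox2 lox/lox and without the Cre, so that the floxed alleles and the reporter are shared by both groups while the Cre driver itself is not. These mice were on a C57 background, 2 to 7 months old, and males and females were used. Flow was lowered in the left carotid by tying off most of its branches, and the contralateral artery of ligated mice served as the high-flow artery. The intima was flushed out with Trizol, and each library pooled the flushes of 3 to 5 arteries, so a library averages several mice and holds RNA of every cell that the flush released. In such bulk RNA, fewer cells of a type and less RNA per cell cannot be told apart. Used beside these 6 libraries were the high-flow arteries of the same genotypes at 7 d (2 libraries per genotype), aortic endothelial cells of each genotype that had been cultured for 7 d and then sorted by FACS as CD31+ and Icam2+ cells (1 library per genotype), and low-flow and high-flow arteries of untreated male C57BL/6J mice of 6 to 7 weeks at 48 h (3 pools each). The libraries are called 1, 4 and 5 after the numbers in the deposited table.

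Rbfox2 is an RNA-binding protein of the Rbfox family, which recognizes the sequence GCAUG in introns and exons of pre-mRNA. Binding downstream of a cassette exon usually promotes its inclusion, and binding upstream usually promotes skipping. Rbfox1 and Rbfox3 are its paralogs, best known from neurons and muscle. At low and disturbed flow the arterial endothelium loses protective transcription factors such as Klf4, displays adhesion molecules, recruits platelets and leukocytes, and re-enters the cell cycle.

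The 6 libraries held between 10318685 and 18633538 counts each. Library 1 of both genotypes came from an earlier sequencing run than libraries 4 and 5. The columns used for control library 4 and EC-KO library 5 came from the same later run. Those for control library 5 and EC-KO library 4 came from a further run, so pairs 4 and 5 each join different runs. The Y-linked gene Ddx3y had 17.8 FPKM (counts scaled to library total and effective gene length) in control library 1 and 25.9 in EC-KO library 1, and was listed at 0 in libraries 4 and 5 of both genotypes, whereas Xist was present in all 6 at 4.97 to 10.1 FPKM. An earlier run and pools that include males therefore coincide in library 1 and cannot be told apart. Control library 1 stood apart from the other controls. Its log2 levels had a correlation across genes of 0.967 with EC-KO library 1 but of 0.832 and 0.850 with control libraries 4 and 5, and on the first principal component, with 43.8% of the variance, it lay at −63.2 against 65.5 and 84.3 for controls 4 and 5 and −52.0, −32.9 and −1.7 for the EC-KO libraries. Each result below that rests on control library 1 is given per library.

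The 13 endothelial markers took 1.26, 0.655 and 0.680% of the counts in control libraries 1, 4 and 5 and 1.10, 1.03 and 0.914% in the EC-KO libraries. Pecam1, Egfl7 and Esam were the most abundant of them, and all 13 were detected, so the libraries hold endothelial RNA as labelled. Some markers of other cells moved one way in all 3 same-numbered pairs. Macrophage markers took 0.0516, 0.202 and 0.0423% in controls and more in each EC-KO library, 0.114, 0.210 and 0.142%. Neutrophil markers took less in each EC-KO library, 0.00264, 0.0497 and 0.00282% against 0.00108, 0.00397 and 0.00130%, with control library 4 far above the other 5. Red blood cell markers also took less, 0.228, 0.0619 and 0.0109% against 0.146, 0.00937 and 0.00817%, with both libraries 1 highest. One of them, the globin gene Hba-a1, which has a near-identical copy, was lower with the block (DESeq2 adjusted p = 5.98e-04), with 1350, 231 and 98.5 FPKM in control and 672, 73.0 and 32.1 in EC-KO. Its copy Hba-a2, between which and Hba-a1 the counting could split reads, was not called and was higher in EC-KO library 5 (60.8 FPKM) than in control library 5 (27.9), so the level of either copy is uncertain. T and NK cell markers were highest in control library 1 (0.0457%), and fibroblast markers in EC-KO library 4 (0.531%, against 0.0719 to 0.183%). Over 14 marker lists, the exact two-sided permutation test of the shares gave no p below 0.3 (1.0 after adjustment over the lists), and 3 libraries against 3 cannot give less than 0.1. The part of these cells in the results below was not tested unless a value is given.

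Rbfox2, on chromosome 15 of mm9 (chr15:76909420-77137483, minus strand), had 3.27, 5.73 and 2.74 FPKM in control libraries 1, 4 and 5 and 1.09, 0.169 and 0.623 FPKM in the EC-KO libraries. These levels rest on 364, 530 and 190 counts in controls and 136, 14 and 58 in EC-KO. Every EC-KO library lay below every control library, with a mean of 0.626 ± 0.459 FPKM (SD, n = 3) against 3.92 ± 1.60 (SD, n = 3). On the log2 scale edgeR's estimate was −2.59, with a standard error of 0.65. Library 1 kept the most Rbfox2 of the EC-KO libraries and library 4 the least. The gene was lower in the EC-KO at high flow as well, with 0.791 and 1.05 FPKM against 3.66 and 3.84, and in culture, with 0.675 against 9.33 FPKM. Rbfox1 was at or below 0.0134 FPKM in the 6 libraries and Rbfox3 was listed at 0 in all of them. The labels therefore match the targeted gene in every library.

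Between the 2 genotypes at low flow, 0 of 12566 genes (0%) passed an adjusted p of 0.05 with edgeR's quasi-likelihood test, and the smallest adjusted p was 0.91. At an unadjusted p under 0.05, 404 genes differed (3.22%), 221 higher in EC-KO (1.76%) and 183 lower (1.46%). Rbfox2 itself was among these, and with an adjusted p of 0.91 the deleted gene was not called by this test. Deviations from the group mean correlated across genes at 0.48, 0.17 and 0.288 between the genotypes in libraries 1, 4 and 5. Control library 4 and EC-KO library 5 correlated at 0.102. By levels, EC-KO library 4 was closer to control library 1 (0.890) than to control library 4 (0.865). No label gives a pairing by number. With the number as a block edgeR again called 0 genes, with 862 at an unadjusted p under 0.05 (6.86%). DESeq2 called 11 genes without the block (0.0710% of 15493), 10 higher (0.0645%) and 1 lower (0.00645%), and 106 genes with it (0.679% of those tested), 78 higher (0.50%) and 28 lower (0.179%). The 11 were Fkbp7, which was lower, and Fosb, Atp6v0d2, Cx3cr1, Dcaf12l1, Jak3, Serpina3g, Enpp2, Cd72, Itgad and Cftr. With the block, the call included Rbfox2 (adjusted p = 0.00429). The shares of 0.50% and 0.179% are of all genes DESeq2 tested. Gene lists below are counted among the 12566 genes edgeR tested, of which 76 were called higher and 28 lower with the block, so these shares are slightly low there. The DESeq2 fit with the block was chosen after seeing the data. The count at an unadjusted p moved with single libraries, most with control library 1. Without it 2917 genes were under 0.05 (22.8%) and edgeR called 2 (0.0156%), Plk1 and Kpna2, both lower in EC-KO. Without library 1 of both genotypes 2002 genes were under 0.05 (16.0%, 8.01% higher and 8.03% lower) and edgeR called 0. DESeq2 called 784 of 14504 genes in that setting, 397 higher and 387 lower. In edgeR, the count at an unadjusted p under 0.05 was 188 without control library 5, 268 without EC-KO library 1 and 124 without EC-KO library 4. Without control library 4 it was 324, 256 of them higher and 68 lower, and without EC-KO library 5 it was 435, 175 higher and 260 lower. In what follows, "called" therefore names a call at low flow by the DESeq2 fit with or without the block unless another test is named, no gene passed the adjusted edgeR test with all 6 libraries, and the genes were picked after their values were seen. For 1021 genes (8.13%) the groups did not overlap, 579 with every EC-KO library above every control (4.61%) and 442 below (3.52%).

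In the low-flow arteries, the high-flow arteries and the cultured cells alike, a small set of genes went with the genotype. Fkbp7, an FK506-binding prolyl isomerase of the endoplasmic reticulum (ER) (chr2:76501101-76511142, mm9, minus strand), led it. It had 58.8, 33.1 and 35.0 FPKM in control libraries 1, 4 and 5 and 12.2, 8.18 and 8.41 FPKM in EC-KO, so that the groups lay far apart in every pair. The log2 fold-change was −2.09 (standard error 0.37), and DESeq2 called it lower without the block (adjusted p = 0.0027) and with it (adjusted p = 5.98e-04). At high flow, Fkbp7 had 80.4 and 74.1 FPKM in controls and 6.21 and 6.27 in EC-KO, and it was the only gene of 13352 that edgeR called there (log2 fold-change −3.67, adjusted p = 0.0352, 0.00749% of genes). With 2 libraries per genotype, DESeq2 called 112 genes at high flow (0.731%), 81 higher (0.529%) and 31 lower (0.202%), among them Fkbp7, Rbfox2, Fkbp14, Sspn, Itga3, Ggcx and Aebp1, which were lower, and Jak3 and Micalcl, which were higher. In culture its level was 44.6 FPKM in control cells and 1.60 in EC-KO cells.

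Its relative Fkbp14, another ER prolyl isomerase that acts on procollagen (chr6:54527598-54547338, mm9, minus strand), had 13.5, 11.6 and 11.3 FPKM in control and 6.10, 1.33 and 0.346 FPKM in EC-KO. Library 1 had the highest EC-KO level, as for Rbfox2. DESeq2 with the block called Fkbp14 lower (log2 fold-change −2.98, adjusted p = 0.00165), and the levels were 11.9 and 7.32 against 1.32 and 1.71 FPKM at high flow and 19.3 against 1.53 in culture. Sspn, which encodes sarcospan of the dystrophin complex (chr6:145880161-145913743, mm9, plus strand), had 23.1, 10.8 and 11.5 FPKM in control and 7.19, 3.86 and 3.19 in EC-KO. It too was called lower with the block (log2 fold-change −1.63, adjusted p = 6.87e-04). Its high-flow levels were 20.1 and 25.8 against 4.33 and 5.6 FPKM, and in culture 357 counts in control cells stood against 0 in EC-KO cells, at least 81.2-fold lower against a floor of 3 counts in that library.

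Itga3, Ggcx and Aebp1 were lower in all 3 settings at smaller folds, and Eln was lower at low flow and in culture. Itga3, the laminin-binding integrin alpha 3 subunit, had 66.7, 39.6 and 47.1 FPKM in control and 36.5, 25.8 and 28.1 in EC-KO (log2 fold-change −0.72, not called at low flow). At high flow it had 52.0 and 50.9 against 24.6 and 22.2 FPKM, and in culture 60.0 against 24.3. Ggcx, the gamma-glutamyl carboxylase that activates vitamin K-dependent proteins, had 29.7, 19.4 and 36.4 FPKM in control and 14.4, 16.4 and 12.5 in EC-KO, 37.4 and 40.7 against 12.3 and 12.1 at high flow, and 30.7 against 7.60 in culture, and was not called at low flow. At high flow DESeq2 called both (adjusted p = 1.91e-11 for Itga3 and 1.10e-14 for Ggcx). For both genes the low-flow groups did not overlap. Eln, which encodes elastin, had 115, 39.1 and 233 FPKM in control and 34.9, 27.7 and 61.2 in EC-KO, lower in every pair with overlapping groups. Its log2 fold-change was −1.63, and −1.35 with the block (DESeq2 adjusted p = 0.0112). Eln had 301 against 81.1 FPKM in culture and was not called by DESeq2 at high flow. Aebp1, a secreted protein that binds collagen, was even across libraries, with 106, 121 and 122 FPKM in control and 58.7, 71.4 and 69.3 in EC-KO (log2 fold-change −0.75, DESeq2 adjusted p = 0.0733 with the block). It had 50.3 and 70.0 against 36.3 and 21.5 FPKM at high flow, and 45.8 against 34.0 in culture.

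Jak3, the tyrosine kinase of the common gamma chain cytokine receptors (chr8:74200195-74214474, mm9, plus strand), led the genes that were higher in all 3 settings. It had 14.8, 21.6 and 16.3 FPKM in control libraries 1, 4 and 5 and 38.0, 43.7 and 35.0 FPKM in EC-KO. The log2 fold-change was 1.2 (standard error 0.23), and DESeq2 called Jak3 without the block (adjusted p = 0.0384) and with it (adjusted p = 0.00267). At high flow it had 15.4 and 12.7 against 54.4 and 34.3 FPKM, and in culture 2.23 against 11.3. Fsd1l had 6.52, 6.02 and 3.20 FPKM in control and 11.9, 18.4 and 14.2 in EC-KO, 4.58 and 4.57 against 7.96 and 11.8 at high flow, and 1.49 against 9.65 in culture, and was called with the block (log2 fold-change 1.58, adjusted p = 0.0136). Enpp2, or autotaxin, which makes lysophosphatidic acid, had 4.78, 1.90 and 2.70 FPKM in control and 8.38, 14.2 and 12.6 in EC-KO. DESeq2 called it without and with the block (adjusted p = 0.0384 and 0.00998). Its culture levels were 4.77 against 14.4 FPKM, and at high flow it had 1.91 and 0.873 against 2.11 and 2.77. Micalcl had at most 1.00 FPKM in the 3 controls and 3.78, 2.73 and 2.96 in EC-KO, 1.27 and 1.29 against 9.13 and 8.77 at high flow, and 1.60 against 6.68 in culture, and was called with the block (DESeq2 adjusted p = 0.0333).

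**Figure D1:**
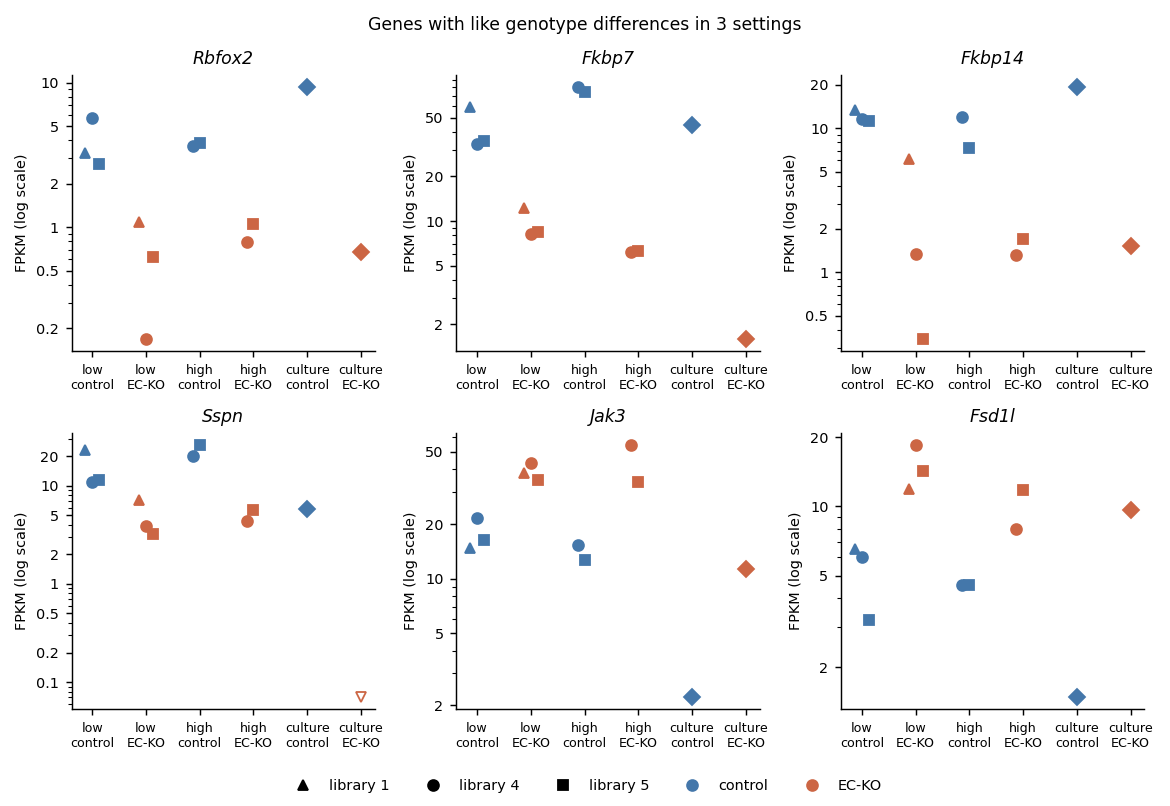
FPKM on a log axis of 6 genes in low-flow arteries (3 libraries per genotype), high-flow arteries (2 per genotype) and cultured aortic endothelial cells (1 per genotype, diamonds), controls in blue and EC-KO in orange, with marker shapes for libraries 1, 4 and 5. Rbfox2, Fkbp7, Fkbp14 and Sspn are lower and Jak3 and Fsd1l higher in EC-KO in each setting, and the open triangle marks Sspn at the floor of 3 counts in the EC-KO culture.

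The cultured cells were other samples, so they show which low-flow differences appeared without flow, at 1 library per genotype and without a test. Of the 221 genes higher at low flow at an unadjusted p under 0.05, 182 were measured in culture (at least 1 FPKM in a library of either genotype), and 19 or 10.4% were at least 2-fold higher in EC-KO cells, while 7 or 3.85% were at least 2-fold lower. Of the 183 lower genes 167 were measured, 13 or 7.78% were at least 2-fold lower and 5 or 2.99% at least 2-fold higher. Over all 10920 genes measured, 3.96% were at least 2-fold higher and 3.42% lower. Most of the low-flow differences thus had no counterpart of that size in culture, the median log2 ratio there being 0.16 for the higher and −0.10 for the lower genes. Adam8, Polq and Rttn are among the genes lower in both, and Pamr1, Lpcat2, Gbp4, Dcn and Ctsc among those higher in both. The control culture held more macrophage RNA than the EC-KO culture, with macrophage markers at 0.0507 and 0.0173% of counts although both had been sorted as CD31+ and Icam2+ cells, and its part in these ratios was not tested.

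**Figure D2:**
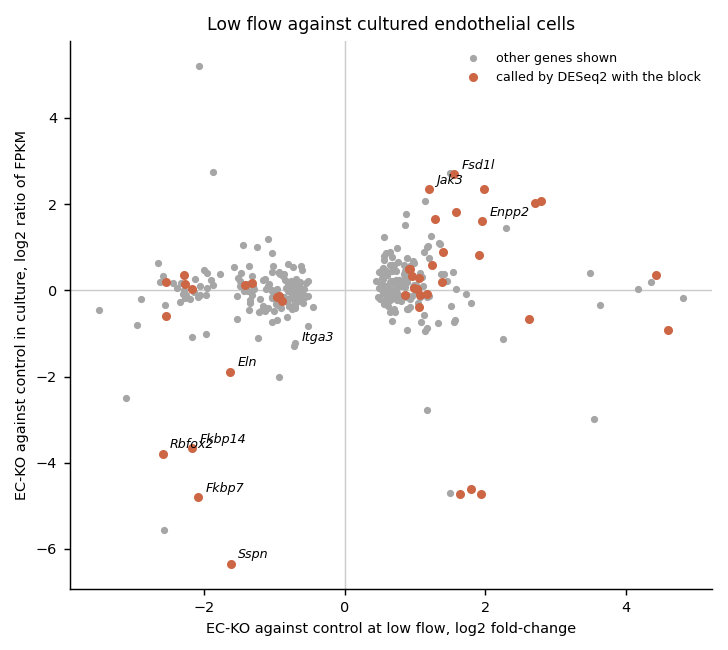
Each point is a gene with an unadjusted edgeR p under 0.05 at low flow that was measured in culture, with the log2 fold-change of EC-KO against control at low flow on the x axis and the log2 ratio of FPKM in cultured cells, 1 library per genotype, on the y axis. Most points lie near 0 on the y axis, and Fkbp7, Fkbp14, Sspn and Rbfox2 (low on both axes) and Jak3, Fsd1l and Enpp2 (high on both) stand off it.

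Several genes of macrophages were higher in EC-KO. Of 16 macrophage and monocyte markers tested, 10 were higher in all 3 pairs, against 15.5% of all genes, and DESeq2 with the block called 4, C1qa, C1qb, C1qc and Emr1, all higher, against 0.50% of all genes (edgeR without the block, 0 called). The median log2 fold-change of the 16 was 0.68, against −0.02 over all genes. C1qb, a chain of complement C1q made by tissue macrophages, had 64.6, 94.8 and 8.45 FPKM in control libraries 1, 4 and 5 and 179, 223 and 152 FPKM in EC-KO (DESeq2 adjusted p = 5.98e-04 with the block). All EC-KO values exceeded all control values, and control library 5 was lowest. Emr1, which encodes F4/80, had 3.62, 14.1 and 1.06 FPKM in control and 13.6, 23.9 and 12.9 in EC-KO, higher in each pair with overlapping groups (DESeq2 adjusted p = 0.00504 with the block). Csf1r and Lyz2 were higher in 2 of the 3 pairs and were not called. Csf1r had 11.5, 66.5 and 10.0 FPKM in control and 35.8, 59.1 and 37.5 in EC-KO, with control library 4 the highest of all 6, and Lyz2, lysozyme, had 195, 1019 and 249 against 374, 958 and 742. Without library 1 of both genotypes, none of the 16 had an unadjusted edgeR p under 0.05, and their median log2 fold-change was 0.54.

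Other genes that macrophages express, picked after their values were seen, were also higher. Cx3cr1, the receptor for fractalkine, had 5.11, 5.78 and 2.35 FPKM in control and 19.4, 12.8 and 15.4 in EC-KO (log2 fold-change 1.90, standard error 0.365). DESeq2 called it without and with the block (adjusted p = 0.00814 and 5.98e-04). Atp6v0d2, a subunit of the vacuolar ATPase best known from osteoclasts and macrophages (chr4:19803988-19849752, mm9, minus strand), had 23.8, 5.61 and 18.9 FPKM in control and 73.4, 111 and 72.2 in EC-KO (log2 fold-change 2.46, standard error 0.52). It was called both ways (adjusted p = 0.0072 and 3.36e-05), and it was on the list of 28 lysosome and V-ATPase genes, of which no other member was called. Cd72, a lectin of B cells and macrophages, had 4.25, 5.74 and 0.835 FPKM in control and 17.2, 20.7 and 26.1 in EC-KO (adjusted p = 0.0384 and 0.00101). B cell markers took at most 0.00326% of the counts in any of the 6 libraries. Cybb, the NADPH oxidase subunit of phagocytes, had 5.30, 17.2 and 4.04 FPKM in control and 20.4, 27.1 and 31.9 in EC-KO (adjusted p = 8.84e-04 with the block). Slc40a1, Lpl, Mmp13 and Treml4 were also called higher with the block. In culture, Cx3cr1 was listed at 0 in both genotypes and Atp6v0d2 had 2 counts in control and 1 in EC-KO. C1qb and Lyz2 had 8.01 and 313 FPKM in the control culture and 0 and 0.551 in the EC-KO culture, the opposite order to low flow.

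**Figure D3:**
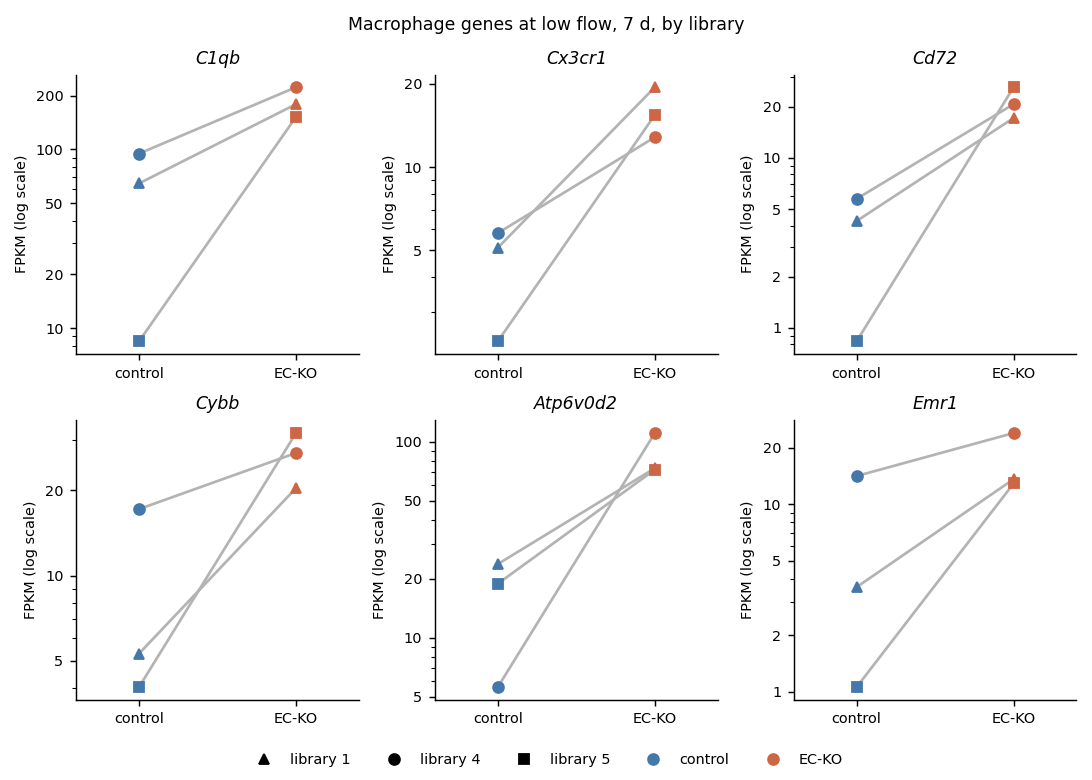
FPKM on a log axis of 6 genes of macrophages in the low-flow libraries, controls in blue and EC-KO in orange, with lines joining libraries of the same number. Each line rises from control to EC-KO, and the groups overlap for Emr1, where control library 4 lies at 14.1 FPKM above EC-KO libraries 1 and 5.

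The ligand of Cx3cr1 and some inflammatory genes of endothelium were called higher with the block. Cx3cl1, fractalkine, had 85.5, 56.9 and 47.1 FPKM in control libraries 1, 4 and 5 and 127, 108 and 113 FPKM in EC-KO (log2 fold-change 0.93, standard error 0.26). DESeq2 with the block called it (adjusted p = 0.0249). Of 14 chemokines tested 8 were higher in all 3 pairs, against 15.5% of all genes, and none was lower in all 3. The most abundant of them, Cxcl12, a chemokine that retains leukocytes and progenitors, had 235.5, 427 and 760 FPKM in control and 232, 176 and 383 in EC-KO, level in pair 1 and lower in pairs 4 and 5, and was not called (log2 fold-change −0.83). The list summed to 473.5, 718 and 927 FPKM in control and 549.5, 585 and 787 in EC-KO, with overlapping groups. Cxcl1, Cxcl2, Cxcl16 and Ccl12 had groups that did not overlap without being called. With Cx3cl1, 5 of the 14 did not overlap, all higher, against 4.61% of all genes. Cxcl1, which attracts neutrophils, had 43.5, 17.9 and 16.5 FPKM in control and 45.3, 64.3 and 118 in EC-KO, close between both libraries 1. Vcam1, the adhesion molecule for leukocytes with alpha 4 integrins, had 766, 413 and 642 FPKM in control and 1539, 1004 and 1140 in EC-KO (log2 fold-change 1.06, standard error 0.33, DESeq2 adjusted p = 0.00263 with the block). Icam1 was higher in each pair and not called, with 392, 195 and 260 against 595, 321 and 414 FPKM. At high flow Vcam1 had 422 and 562 FPKM in control and 394 and 629 in EC-KO, and in culture 359 against 272.

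Among 16 NF-kB subunits and their inhibitors, 5 had an unadjusted p under 0.05, all higher, against 1.76% of all genes. In all 3 pairs 7 were higher, against 15.5% of all genes, and 1 lower, against 13.2%. Tnfaip3, the feedback inhibitor A20, had 27.8, 14.4 and 17.6 FPKM in control and 54.7, 39.7 and 35.6 in EC-KO (log2 fold-change 1.17, standard error 0.30). It was called with the block (DESeq2 adjusted p = 0.00503), as was the inhibitor Nfkbia (adjusted p = 0.0343), which had 183, 94.0 and 81.3 FPKM against 283, 183 and 163, higher in each pair with control library 1 inside the EC-KO range. Rela, the p65 subunit, had 106, 79.8 and 82.6 FPKM in control and 149, 144 and 113 in EC-KO and was not called. The median over the 16 was 0.13, and −0.06 without library 1 of both genotypes, so the list as a whole lay near the median of all genes.

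Of 38 interferon-stimulated genes tested, 7 had an unadjusted p under 0.05 and all 7 were higher, against 1.76% of all genes, and 9 had groups that did not overlap, all higher, against 4.61% of all genes. Without library 1 of both genotypes 20 were under 0.05, all higher, against 8.01% of all genes. DESeq2 called 11 of the 38 higher in that setting, against 385 of 12566 genes. Irf1, a transcription factor induced by interferon and NF-kB, had 106, 69.7 and 64.5 FPKM in control and 147, 141 and 171 in EC-KO (log2 fold-change 0.98, standard error 0.25, DESeq2 adjusted p = 0.0284 with the block). Gbp2, an interferon-induced GTPase, had 178, 70.0 and 90.5 FPKM in control and 188, 230 and 356 in EC-KO (adjusted p = 0.0284 with the block). For Gbp2 the difference lay almost wholly in libraries 4 and 5. Iigp1 was the third called higher with the block, 3 of 38 against 0.50% of all genes. It had 193, 47.7 and 77.0 FPKM in control and 163, 201 and 389 in EC-KO, lower in the EC-KO of pair 1. The most abundant members, the antiviral membrane proteins Ifitm3 and Ifitm2, had log2 fold-changes of 0.15 and 0.09 and were not called. Ifitm3 had 876, 581 and 405 FPKM in control and 747.5, 519 and 734 in EC-KO, and Ifitm2 had 570.5, 247 and 191 against 405, 280 and 348, both highest in control library 1. The median of the list was −0.09 in pair 1, 0.79 in pair 4 and 0.99 in pair 5.

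**Figure D4:**
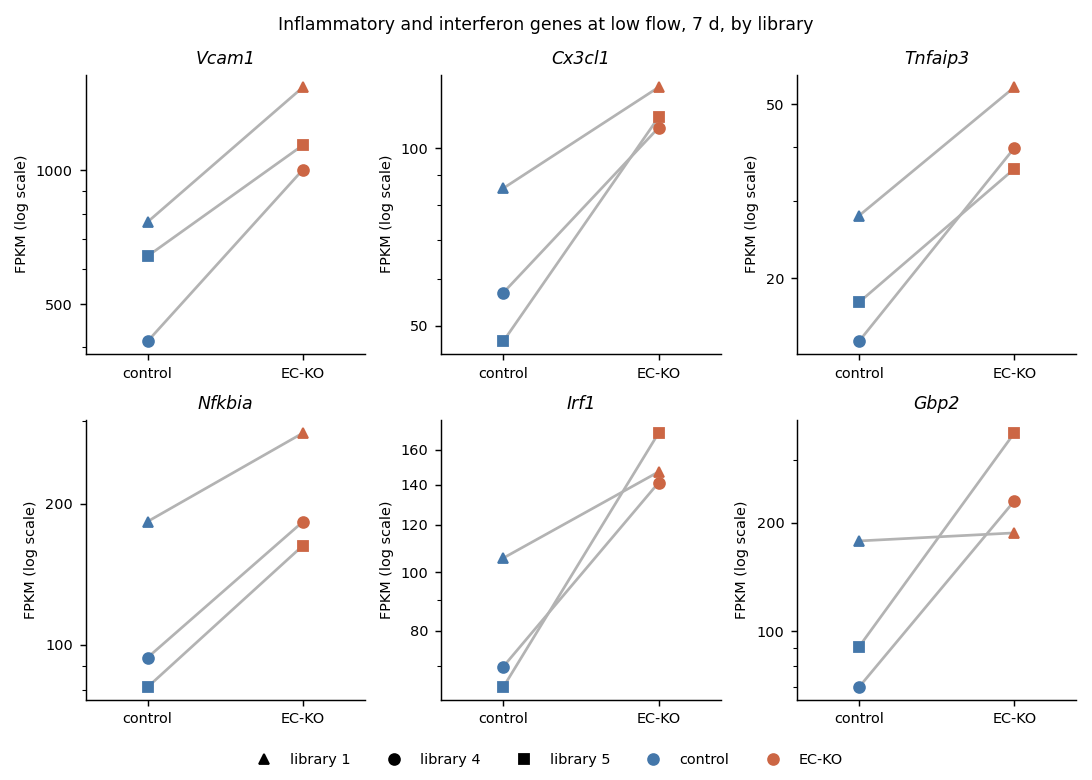
FPKM on a log axis of 6 inflammatory and interferon genes in the low-flow libraries, controls in blue and EC-KO in orange, with lines joining libraries of the same number. Vcam1, Cx3cl1, Tnfaip3, Nfkbia and Irf1 are higher in EC-KO in each pair, while Gbp2 differs little in pair 1 (178 and 188 FPKM).

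At the median, proliferation genes were lower in pairs 4 and 5 and not in pair 1. The 38 genes of mitosis and cytokinesis summed to 166, 2044 and 2036 FPKM in control libraries 1, 4 and 5 and to 196, 262 and 590 FPKM in EC-KO. Control library 1 was thus the lowest of the 6, and no mitosis gene had groups that did not overlap. All 38 had log2 fold-changes between −2.59 and −1.48, and 15 had an unadjusted p under 0.05, all lower, against 1.46% of all genes. With the block 31 were under 0.05, against 6.86% of all genes in either direction, and without library 1 of both genotypes all 38 were, against 8.03% of all genes lower in that fit. Their median log2 ratio was 0.30 in pair 1, −2.70 in pair 4 and −1.84 in pair 5. DESeq2 with the block called 3, the cyclin Ccnb2, the separase Espl1 and the cytokinesis factor Ect2, all lower, against 0.179% of all genes. Without library 1 of both genotypes it called 36 of the 38 lower, against 379 of 12566 genes. The most abundant members were Birc5, the survivin of the chromosomal passenger complex, and Ube2c, which loads ubiquitin for the anaphase-promoting complex. Neither was called with all 6 libraries. Birc5 had 11.2, 129 and 132 FPKM in control and 13.9, 19.7 and 37.2 in EC-KO, and Ube2c had 9.42, 169 and 91.5 against 12.2, 16.6 and 25.7. Ccnb2 had 10.6, 121 and 69.6 FPKM in control and 9.41, 13.4 and 17.1 in EC-KO. Plk1, a mitotic kinase, had 3.81, 58.6 and 39.0 FPKM in control and 5.73, 5.16 and 5.32 in EC-KO. Leaving out control library 1, Plk1 was called by edgeR (log2 fold-change −3.12, adjusted p = 0.0315), with Kpna2, an importin. Genes of DNA replication summed to 441, 2045 and 3145 FPKM in control and 536, 584 and 1508 in EC-KO, 0 of 32 were called with the block, and their median was 0.36 in pair 1 against −1.74 and −1.10. The most abundant of them, the helicase subunit Mcm6 and the sliding clamp Pcna, had 67.0, 263 and 389 and 60.2, 178 and 359 FPKM in control against 83.1, 90.6 and 198 and 74.7, 97.9 and 212 in EC-KO. None of the 32 was under an unadjusted p of 0.05, and 18 were, all lower, without library 1 of both genotypes. DESeq2 called 9 of the 32 lower in that setting, against 379 of 12566 genes.

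MHC class I genes and ER folding genes split the same way in part. The class I genes, which present peptides to T cells, summed to 11070, 4752 and 4523 FPKM in control and 9328, 8338 and 9992 in EC-KO, highest in control library 1, and 0 of 19 were called with the block. Without library 1 of both genotypes, 15 of the 19 were higher at an unadjusted p under 0.05, against 8.01% of all genes. DESeq2 called 12 of the 19 higher in that setting, against 385 of 12566 genes. The most abundant, H2-D1 and the light chain B2m, had 3576, 1361 and 1374 and 3384, 1630 and 1322 FPKM in control and 3162, 2785 and 2837 and 2480, 2355 and 3354 in EC-KO, lower in pair 1 and higher in pairs 4 and 5. Of 17 complement genes tested, DESeq2 with the block called the 3 C1q chains, already counted among the macrophage markers, against 0.50% of all genes. Of 32 ER folding genes, 14 were lower and 3 higher in all 3 pairs, against 13.2% and 15.5% of all genes, and 3 were called lower with the block, against 0.179%. These were Fkbp7, Fkbp14 and Serpinh1, the collagen chaperone HSP47, which had 253, 564 and 578 FPKM in control and 169, 226 and 297 in EC-KO (DESeq2 adjusted p = 0.029), lower in each pair with overlapping groups. The abundant chaperone Hspa5 had 556, 1106 and 1591 FPKM in control and 546, 594 and 774 in EC-KO and was not called, nor was the disulfide isomerase Pdia3, with 652.5, 870 and 1050 against 524, 581 and 864.

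**Figure D5:**
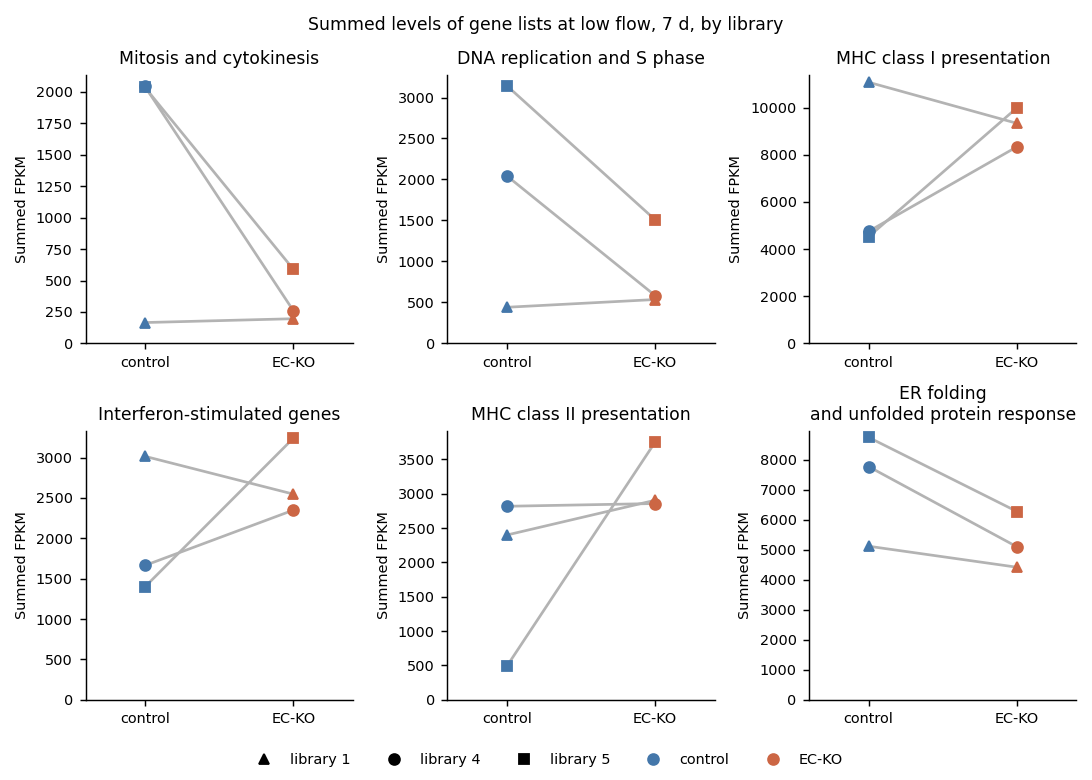
Summed FPKM of 6 gene lists in each low-flow library, controls in blue and EC-KO in orange, with lines joining libraries of the same number and axes from 0. For mitosis and DNA replication control library 1 is the lowest of the 6, close to EC-KO library 1 and far below controls 4 and 5, and for MHC class I and interferon-stimulated genes far above them, while ER folding genes are lower in EC-KO in each pair and MHC class II genes are lowest in control library 5 (486 FPKM).

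Fasn and 3 genes of amino acid synthesis, chosen after their values were seen, were called lower with the block. Fasn, fatty acid synthase, had 13, 15 and 16.3 FPKM in control and 6.16, 3.00 and 8.16 in EC-KO (log2 fold-change −1.32, standard error 0.34, DESeq2 adjusted p = 0.00385 with the block). Its groups were well apart, and at high flow it had 10.9 and 7.58 FPKM in control and 16.1 and 16.1 in EC-KO, where DESeq2 called it higher (adjusted p = 0.0397). Asns, Phgdh and Psat1, which make asparagine and serine, had the other calls (DESeq2 adjusted p = 8.90e-04, 0.0365 and 0.04). Asns had 6.39, 22.2 and 40.0 FPKM in control and 2.62, 3.78 and 7.48 in EC-KO.

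Several matrix and immediate early genes were highest in EC-KO library 4. Dcn and Lum, the proteoglycans decorin and lumican, were called higher with the block (adjusted p = 8.84e-04 for both), and their EC-KO levels were 372, 1054 and 305 FPKM for Dcn and 87.6, 354 and 120 for Lum. In control these genes had 297, 114 and 57.0 and 64.5, 53.3 and 23.4 FPKM. Both are on the list of fibroblast markers, whose share was 0.531% in EC-KO library 4 against at most 0.183% in the other 5 libraries, and whose median log2 ratio was −1.43 in pair 1, 2.74 in pair 4 and 0.91 in pair 5. Fos, the immediate early transcription factor, had 776 FPKM in EC-KO library 4 and 9.0 to 25.6 in the other 5. Its relative Fosb had 0.316, 0.680 and 0.133 FPKM in control and 4.17, 17.7 and 1.17 in EC-KO and was called both ways (DESeq2 adjusted p = 0.0072 and 1.77e-08). Serpina3g, a serine protease inhibitor that interferon-gamma induces, had 6.06, 2.38 and 0.417 FPKM in control and 8.02, 39.7 and 48.5 in EC-KO and was called without the block (adjusted p = 0.0384) but not with it (adjusted p = 0.155).

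The 12 genes the study assayed by qPCR were picked by its authors with these samples in view, so their levels in these libraries are not independent evidence. The paper reports that qPCR of selected genes in individual carotid arteries also gave expression changes, a separate measurement not used here. Of these, DESeq2 with the block called 4 higher (Psen2, Nfkbia, Mmrn2 and Atp6v0d2) and 1 lower (Fkbp7), against 0.50% and 0.179% of all genes. Mmrn2, an endothelial matrix protein, had 227, 99.4 and 133 FPKM in control and 308, 340 and 258 in EC-KO. Psen2, presenilin 2 of the gamma-secretase complex, had 63.7, 10.2 and 11.9 FPKM in control and 91.2, 74.5 and 40.6 in EC-KO. Not called with all 6 libraries were Ly6a, Ly6c1, Ly6e, Serping1, Mal, Nipal2 and Clic5. Without library 1 of both genotypes DESeq2 called 11 of the 12 higher and 1 lower, against 385 and 379 of 12566 genes. Ly6c1, a surface antigen of endothelium, had 231, 52.9 and 37.2 FPKM in control and 180, 174 and 139 in EC-KO, and for Ly6c1, Ly6a, Serping1 and Mal the level in control library 1 exceeded that in EC-KO library 1. Klf4, a transcription factor that high flow induces, had 9.48, 2.21 and 1.2 FPKM in control and 11.3, 8.59 and 7.58 in EC-KO and was not called.

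Genes whose exons respond to Rbfox2 differed little in level at the median. The study's list of genes with an Rbfox2-affected skipped exon, made with these samples, holds 95 genes that were tested here. With an unadjusted p under 0.05, 2 were higher (Ceacam1 and Lsr) and 2 lower (Ddx39 and Rcbtb2), against 3.22% of all genes in either direction. None was called by DESeq2 with the block, and the median log2 fold-change was 0.09. In all 3 pairs 22 of the 95 were higher and 10 lower, against 15.5% and 13.2% of all genes. For 8 every EC-KO library lay above every control and for 2 below, against 4.61% and 3.52%. The exons can be placed on the genome, and 260 of them, each with 1 class of effect, were searched for the Rbfox motif TGCATG on the transcribed strand in the 200 bases after the exon. Of 101 affected exons 15 held it (14.9%), 7 of 22 whose flow response was larger in EC-KO (31.8%) and 8 of 79 whose flow response was smaller (10.1%). Of the 159 other exons on the list 15 held it (9.43%), and in the 200 bases before the exon the shares were 7.92% of affected and 7.55% of other exons. Shown are stretches around the first match after 5 affected exons, chosen because their genes encode an adhesion, matrix, amyloid precursor or transcription factor protein well measured here, 5′ to 3′ on the transcribed strand from the mm9 genome, with the motif in capitals.
App: ggaagactatgtTGCATGactgaatgtgtc
Zbtb20: tccctgtcctaaTGCATGacccagcgacct
Ctnnd1: tgtctcctaactTGCATGgtttggttctta
Fn1: catggatggtgtTGCATGctgctcagtcgc
Fbln2: cctactacccttTGCATGtgagctcccaca
They lie in the intron after the exon, at chr16:85040433-85040462 (minus strand), chr16:43571939-43571968 (plus), chr2:84452635-84452664 (minus), chr1:71660278-71660307 (minus) and chr6:91209856-91209885 (plus), and their motifs begin at base 46, 47, 37, 42 and 104 after the exon. App and Zbtb20 belong to the class with the larger flow response and the other 3 to that with the smaller. A match is a description of these letters and was not tested as a site. The level of the catenin gene Ctnnd1 was 36.4, 43.5 and 36.3 FPKM in control and 48.5, 53.4 and 47.4 in EC-KO, above in every library though not called. Fn1, fibronectin, had 75.1, 64.8 and 130 FPKM in control and 45, 100 and 92.3 in EC-KO, with overlapping groups. App had 311, 166 and 181 FPKM against 356, 346 and 268, higher in each pair and not called. Of 38 other splicing regulators tested, none was called with the block and 1 had an unadjusted p under 0.05, Hnrnpl, with 47.5, 63.0 and 59.5 FPKM in control and 33.2, 33.4 and 43.0 in EC-KO.

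Whether the deletion acted differently at low and at high flow was tested as an interaction in a fit of all 10 libraries at 7 d. High-flow arteries were the contralateral arteries of ligated mice, so libraries of both flows can share animals. The fit took all 10 as independent. edgeR called 0 of 13352 genes, with 538 (4.03%) at an unadjusted p under 0.05, 406 of them lower at low flow relative to high flow (3.04%) and 132 higher (0.989%). The smallest adjusted p was 0.986. With the library number as a block edgeR again called 0 genes, with 834 at an unadjusted p under 0.05, 330 higher and 504 lower. DESeq2 called 21, all lower (0.131%), among them Cdca7, Ccnb2, Spag5, Nusap1, Ube2c, Cenpf and Kif2c of the cell cycle, and Fasn. The 5 genes with the smallest interaction p in edgeR were Cnr2, Cdca7, Rnf157, Fasn and Nusap1. Cdca7, a gene of S phase, had 17.6, 48.6 and 53.5 FPKM in control and 10.8, 12.1 and 20.9 in EC-KO at low flow, and 3.25 and 1.48 in control and 34.9 and 6.65 in EC-KO at high flow. Cnr2, the cannabinoid receptor of leukocytes, was listed at 0 in both high-flow controls and had 0.868 and 0.240 FPKM in the high-flow EC-KO. High-flow EC-KO library 4, which was the highest high-flow library for each of these 5, also held the most T and NK cell RNA, 0.0856% of its counts against at most 0.00901% in the other 3 high-flow libraries, and its Cd3e was 64.3 FPKM. With that library left out, an alternative chosen after seeing the data, 138 genes had an unadjusted interaction p under 0.05 in edgeR, 116 of them lower, and 0 were called. The median high-flow log2 fold-change of the mitosis genes was 1.79. For Fkbp7, lower at both flows, the interaction had an unadjusted edgeR p of 0.00616 (adjusted p = 0.986). Vcam1, Cx3cl1, Tnfaip3 and Irf1 were not called by this test either.

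The direction of low flow itself was taken from the untreated mice at 48 h, where edgeR called 5195 of 11236 genes (46.2%). Of the 404 genes at an unadjusted p under 0.05 between genotypes, used because edgeR called none, 206 were called at 48 h, and 169 or 82.0% of these differed between genotypes against the flow response. Over all genes tested 4025 of 5103, or 78.9%, did so, so the share is near the background. Without library 1 of both genotypes the share was 97.3% of 1355, and over all genes tested in that fit it was 82.6% of 5087. The 6 genes that DESeq2 called without the block and that were called at 48 h all went with the flow response, while of the 106 called with the block 58 were called at 48 h by DESeq2 and 33 of these, or 56.9%, went against it. Of the 6, Cx3cr1, Atp6v0d2 and Cd72 rose at low flow at 48 h by 5.37, 3.23 and 2.60 on the log2 scale. Fkbp7 fell by 0.68 there (edgeR adjusted p = 0.0116). Vcam1 and Tnfaip3 were not called at 48 h, and Cx3cl1 rose by 1.70 (edgeR adjusted p = 8.88e-05).

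Of 38 other matrix proteins tested, 5 were higher (Postn, Dcn, Lum, Ltbp2 and Mmrn2) and 2 lower (Eln and Mmp3) at an unadjusted p under 0.05, against 3.22% of all genes in either direction, and the median log2 fold-change was 0.06. DESeq2 with the block called Dcn, Lum and Mmrn2 higher and Eln lower, against 0.50% and 0.179% of all genes. Without library 1 of both genotypes 9 were higher and 0 lower at an unadjusted p under 0.05, against 8.01% and 8.03% of all genes. Postn, periostin, had 5.31, 4.80 and 2.23 FPKM in control and 3.69, 76.5 and 8.03 in EC-KO, and Ltbp2, which binds microfibrils, had 14.2, 5.32 and 13 against 17.9, 47.9 and 15. Both were highest in EC-KO library 4, as the fibroblast markers were. Mmp3, or stromelysin, had 10.9, 12 and 3.16 FPKM in control and 1.43, 3.23 and 2.52 in EC-KO. The abundant members Mgp and Sparc had 1910, 1379 and 759 and 586, 1193 and 1232 FPKM in control and 842, 1273 and 1159 and 502, 982 and 965 in EC-KO, with overlapping groups.

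In the other lists few members had an unadjusted p under 0.05, for which the shares of all genes were 1.76% higher and 1.46% lower. Collagen genes (27 tested), glycolysis and hypoxia genes (23) and Ly6 antigens (6) had none. Their most abundant members overlapped between groups, Col18a1 at 130 to 224 FPKM in control and 99.0 to 186 in EC-KO, Col8a1 at 89.3 to 170 and 84.7 to 111, Gapdh at 795 to 1522 and 799 to 989, and Ldha at 458 to 939 and 435 to 531. Of 13 leukocyte adhesion molecules Vcam1 alone was under 0.05, higher, and 5 were higher in all 3 pairs, against 15.5% of all genes, and none lower. Pecam1, the most abundant of them, had 1645, 642 and 861 FPKM in control and 1407, 1247 and 1220 in EC-KO.

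Integrin subunits (14) had Itga3 alone and G1 cyclins and inhibitors (16) Ccnd3 alone under 0.05, both lower, against 1.46% of all genes. Ccnd3, cyclin D3, had 123, 152 and 154.5 FPKM in control and 93.6, 68.7 and 110 in EC-KO, and its partner Cdk4 had 142, 331 and 309 against 124, 138 and 205. Itgb1 and Itga5, the abundant chains of the fibronectin receptor, lay at 549 to 622 and 115.5 to 229.5 FPKM in control and at 554 to 708 and 131 to 190 in EC-KO. Of 23 flow-responsive endothelial genes, Ctgf and Nfe2l2 were under 0.05 and higher, against 1.76% of all genes. In all 3 pairs 9 of the 23 were higher and 1 lower, against 15.5% and 13.2% of all genes. For 4 every EC-KO library lay above every control and for 0 below, against 4.61% and 3.52%. Ctgf, a matricellular protein induced by YAP and TGF-beta, had 370, 217 and 633 FPKM in control and 975, 976 and 664 in EC-KO. Its relative Cyr61 had 226, 1005 and 1388 against 657, 3397 and 397, higher in pairs 1 and 4 and lower in pair 5.

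Of 29 genes of TGF-beta and BMP signalling and mesenchymal cells, 1 was under 0.05, the receptor Tgfbr1, higher, against 1.76% of all genes. The abundant members Vim and Id3 had log2 fold-changes of −0.01 and 0.24. Of the lysosome genes, Lamp1 and Psap were most abundant, at 389 to 535 and 283 to 441 FPKM in control and 552 to 577 and 407 to 629 in EC-KO, and were not called. The abundant splicing regulators Hnrnpk and Hnrnpf had log2 fold-changes of −0.23 and −0.31, and Fkbp1a and Mfge8, the most abundant genes with an affected exon, of −0.14 and 0.19. MHC class II genes (9 tested) had none under 0.05, with sums of 2399, 2818 and 486 FPKM in control and 2906, 2858 and 3753 in EC-KO. The invariant chain Cd74 had 1443, 1275 and 242 FPKM in control and 1625, 1565 and 2117 in EC-KO, and H2-Ab1 had 373, 709 and 106 against 561, 507 and 629, so that control library 5 was lowest for both.

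For most of these lists more members had an unadjusted p under 0.05 when library 1 of both genotypes was left out, where 8.01% of all genes were higher and 8.03% lower. The lists with more higher members were the qPCR genes (11 higher and 1 lower of 12), lysosome and V-ATPase genes (12 and 0 of 28), Ly6 antigens (3 and 0 of 6), leukocyte adhesion molecules (4 and 0 of 13), collagen genes (5 and 1), TGF-beta, BMP and mesenchymal genes (5 and 1), flow-responsive genes (4 and 1) and genes with an affected exon (14 and 7 of 95). More were lower among splicing regulators (2 higher and 11 lower of 38), glycolysis and hypoxia genes (2 and 6), ER folding genes (1 and 9 of 32) and G1 cyclins and inhibitors (2 and 4), and integrin subunits had 3 each way.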

How the data were processed

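RNA of the 7 d arteries and of the cultured cells was sequenced as 150 bp paired reads, and that of the 48 h pools as 80 and 100 bp paired reads (SMARTer Universal Low Input kit, a first-strand setting is given for the mapping of the 48 h pools and no strand use for the gene counts). The authors mapped reads to mm9 and estimated expected counts per gene with RSEM, which they deposited in 1 table, and the submitters' processing notes give STAR 2.5.1b and RSEM 1.2.15. FPKM was computed here from the deposited expected counts, effective lengths and library totals. Of 204 value columns, 186 were not used. Control library 5 and EC-KO library 4 were sequenced again, and the column of the repeat, the deeper one, was used. Columns 4 and 5 match the genotype and flow of a group and not a single replicate of it. Between 5.20 and 9.05% of the gene values in each of the 6 libraries were not whole and were rounded. A row without a gene name (0.0459 to 0.0614% of counts) was left out.

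The main test was edgeR 4.0.16 quasi-likelihood on 3 against 3 libraries (filterByExpr, TMM, Benjamini-Hochberg over 12566 genes), with standard errors from the fold-change and F. DESeq2 1.42.0 was the alternative. P-values measure the spread between these pools. The groups shared library numbers, and deviations from the group mean in same-numbered libraries correlated at 0.48, 0.17 and 0.288 across genes. Control library 4 and EC-KO library 5 correlated at 0.102, and the other unlike numbers negatively. The numbers were taken to pair the samples, from the data and not from a label. Pair ratios used a pseudocount of 0.5 CPM. Scripts were tested on simulated data. Members and gene lists were chosen with earlier results of these data known. Genes named by rule were the Rbfox family, the qPCR genes, the genes that edgeR called, of which there were none, the 5 leading interaction genes and the 2 most abundant of each list. The 3 most abundant markers of each cell type also fell under the rule, and are named for endothelial cells and macrophages, while other marker lists are given as shares. All others were chosen after their values were seen. List members H2-L, H2-Q4, Crry, Col6a3, Pkm and Ptbp3 were not matched by name in the table. An item withheld from this text is not reported here.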

Additional observations from a re-analysis of the deposited data

How the results depend on the processing

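In edgeR, the count of 0 genes at low flow was the same with RLE scaling, other filters and the replicate block. It was also the same with a term for library 1 against the others, and in the fit of all 10 libraries. The separate runs of libraries 4 and 5 were not fitted. Leaving out each library in turn gave 0 to 2 calls, the 2 being Plk1 and Kpna2 without control library 1. DESeq2 gave 11, with the block 106, and without library 1 of both genotypes 784. For the interaction, leaving out each low-flow library gave 0 to 7 calls, the 7 being Cp, Efemp1 and Parm1 (higher) and Kpna2, Kif23, Spag5 and D2Ertd750e (lower) without control library 1, and DESeq2 gave 21. Leaving out each high-flow library, chosen after seeing the data and with the lone library of a group assumed to vary like the others, gave 0 calls and 138 to 644 genes at an unadjusted p under 0.05, fewest without EC-KO library 4. Of genes called by DESeq2, 0% went against the 48 h flow response, with the block it was 56.9%, and without library 1 of both genotypes 96.3%. The cause of these differences was not tested. Thyroid markers, near 0 in all libraries, had a difference of 0.00207 CPM that was of the other sign than their share. The alternatives with the other columns of libraries sequenced more than once were not run, since a group would then have more columns than samples. Of the 45 genes followed through each setting, all kept their direction. Many were picked after their values were seen, and each setting refits the same libraries, so like directions were largely fixed in advance. Library 1 limits what the 6 libraries can show, since it differs from libraries 4 and 5 in run and in Y-linked RNA, and for Slc40a1 the log2 fold-change ran from 0.45 to 3.17 when single libraries were left out.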
